A study of Mus musculus with 2 samples.

Results

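The genes described here encode 10 families of enzymes that build and finish glycans: the Galnt, B3gnt and B4galt glycosyltransferases, the St3gal, St6gal and St8sia sialyltransferases, the Fut fucosyltransferases and the Chst, Hs3st and Hs6st sulfotransferases. Members were taken by symbol from the protein-coding genes of GENCODE mouse release 21, which gave 88 gene records of 21755 on the autosomes and the X chromosome. They carry 87 symbols, because the annotation gives St6galnac2 to 2 records. The St6gal family includes the St6galnac genes, and the Galnt family includes Galntl5 and Galntl6. The families were put forward, and their marked members chosen by, the same peak calls that are described below, so all counts are descriptions with no test.

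H3K27me3, the histone methylation laid down by Polycomb repressive complex 2, was mapped by ChIP-seq in mouse embryonic stem cells of the line E14TG2a.4. The labels describe the line as male, of strain 129/Ola and of embryonic age 3.5 days, and name no treatment or other genotype. They give a single group of 2 biological replicates, both of 1 donor line, so the values describe this line alone. Peak lists were deposited for each replicate, with 63651 peaks over 53.6 Mb in replicate 1 and 98582 peaks over 58.4 Mb in replicate 2. Library depth is unknown, and too few reads can also leave a start without a peak. Genes counted as marked had a peak from each replicate overlapping the 2001 bp window around the annotated 5' end, 1 kb to either side, on build mm10. Of 7 stem cell markers Esrrb alone was marked, and Pou5f1, Nanog, Sox2, Klf4, Zfp42 and Tfcp2l1 had no peak in that window. Of 7 fibroblast markers, 4 were marked and 3 had no peak, and the housekeeping genes Actb and Gapdh had none. Of all protein-coding genes 26.1% were marked, so lists this short do not check the identity of the line. A peak list shows the mark and not expression, so these counts do not measure feeder cells.

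Glycans are made in large part by enzymes of the Golgi, most of which add single sugars or sulfate groups. GALNT enzymes start mucin-type O-glycans, many B3GNT and B4GALT enzymes lengthen chains, and many sialyltransferases and fucosyltransferases cap them. CHST, HS3ST and HS6ST enzymes place sulfate groups on chondroitin, keratan and heparan sulfate and on other glycans. Many of these families pair broadly expressed members with members used in single tissues, and glycan epitopes such as SSEA-1 are classical markers of mouse embryonic stem cells.

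H3K27me3 lay at the starts of most of these genes, and the families ranged widely. In all, 56 of 88 records were marked in both replicates (63.6%), where 26.1% of all protein-coding genes were. A further 5 had a peak in replicate 2 alone, 1 had a peak in replicate 1 alone, and 26 had none. Replicate 1 had a peak at 57 members and replicate 2 at 61, where 27.8% and 30.2% of all genes had one. The highest shares were in Hs3st (6 of 7), St8sia (5 of 6), Galnt (15 of 19) and Chst (11 of 14). The lowest were in B3gnt (3 of 9), Fut (3 of 8) and B4galt (3 of 7), with Hs6st (2 of 3), St6gal (5 of 9) and St3gal (3 of 6) between them. Families of this size differ by a few genes, and the differences between families were not tested.

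**Figure D1:**
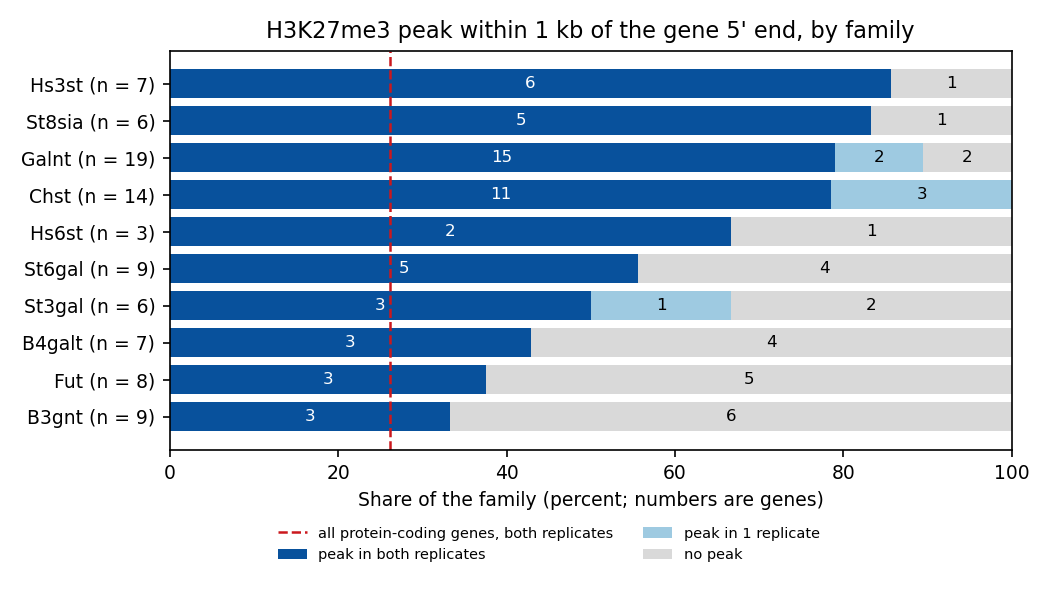
Share of each family with an H3K27me3 peak within 1 kb of the gene 5' end in both replicates, in 1 replicate or in neither (horizontal axis in percent, numbers in the bars are genes). The dashed line is the 26.1% of all protein-coding genes, and the share marked in both replicates lies above it in each of the 10 families, from 33.3% in B3gnt to 85.7% in Hs3st.

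The marked members were covered broadly. Their windows had a median of 1614 bp covered in replicate 1 and 1547 bp in replicate 2, and the 5679 marked genes of the genome had medians of 1251 bp and 1200 bp. The authors' signal value, a number for each peak with an unknown scaling, had medians of 8.82 and 8.96 over marked members and 7.67 and 7.56 over all marked genes. When at least 50% of the window had to be covered in each replicate, 40 members remained (45.5%) against 14% of all genes. Under that rule Galnt fell from 15 members to 8, while Chst kept 10 of 11 and Hs3st 5 of 6. Over the 56 marked members the replicates had a Pearson r of 0.931 and a Spearman rho of 0.89 for covered bases, and 0.85 and 0.856 for signal. These correlations run across genes that share the libraries and are given as a description. The windows of 8 marked members also overlap another protein-coding gene, so the peak there cannot be assigned to the member alone. These are Galnt2 (with Gm20388), Galnt4 (Poc1b), Galnt11 (E130116L18Rik), Galntl6 (BC030500), B3gnt4 (Diablo), B4galt2 (Atp6v0b), Chst15 (Fgfr2) and Hs3st3a1 (F930015N05Rik).

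**Figure D2:**
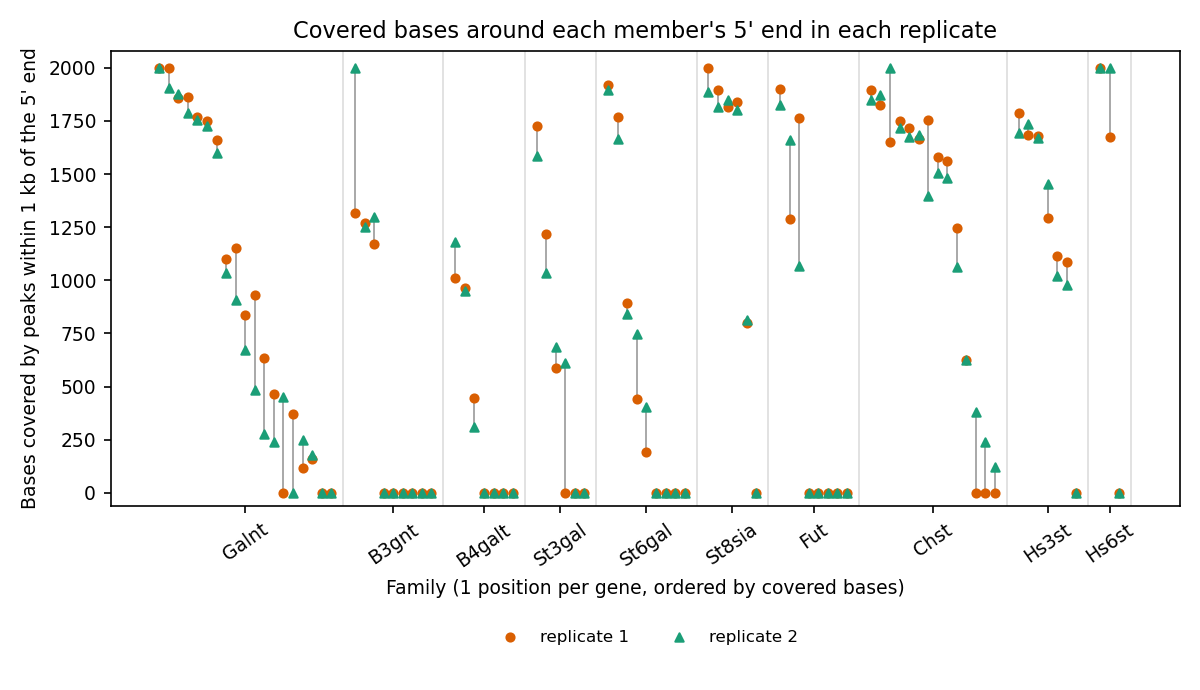
Bases covered by peaks in the 2001 bp window around each member's 5' end (vertical axis) in replicate 1 (circles) and replicate 2 (triangles), with 1 position per gene and families along the horizontal axis. Galnt members spread from 0 to 2001 bp, whereas marked Hs3st members sit between 980 and 1787 bp and genes with no peak lie at 0.

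Of the 10 Hs3st and Hs6st genes, which encode sulfotransferases of heparan sulfate, all but 2 were marked. HS3ST enzymes add the rare sulfate at the 3 position of glucosamine, which creates binding sites for antithrombin and other proteins. Hs3st5 was covered over 1787 bp in replicate 1 and 1693 bp in replicate 2, with signal values of 11.8 and 10.7. Hs3st4 had 1088 and 980 bp (signal 11.2 and 11.0), and Hs3st6 had 1685 and 1734 bp (10 and 12.4). Hs3st3b1 had 1681 and 1668 bp (11.5 and 8.96). Its close relative Hs3st3a1, 513 kb away on chromosome 11, had 1115 and 1019 bp and lay in a separate domain. Hs3st2 had 1294 and 1455 bp. The 6 marked genes thus had similar coverage in both replicates, and none was below 980 bp in either.

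Hs3st1, which encodes the main enzyme for antithrombin-binding heparan sulfate, was the 1 member of its family with no peak at the 5' end of the gene record. That end belongs to a single transcript on chromosome 5 at 39755475. The other 3 annotated starts of the gene lie 110229 to 110878 bp further downstream, and their windows were covered over 1536 to 1841 bp in replicate 1 and 1325 to 1709 bp in replicate 2. By any annotated transcript start, all 7 Hs3st genes were therefore marked.

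HS6ST enzymes place sulfate at the 6 position of heparan sulfate. Hs6st2 on the X chromosome was covered over all 2001 bp in both replicates (signal 6.85 and 8.1). Hs6st3 had 1676 and 2001 bp (9.73 and 7.47). Hs6st1 had no peak, and the nearest base covered in both replicates was 36996 bp away. Its start had the highest CpG ratio of all members, 0.983.

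To show the starts behind the extremes of the family shares, 250 bases before the start are printed for Hs3st (largest share) and B3gnt (smallest share), each for the marked gene of highest rank that overlaps no annotated exon and the gene without a peak of highest CpG ratio. A second Hs3st1 start, the first marked one, was added after its values were seen. All are on the gene's strand, 5' to 3', from RefSeq's GRCm38.p6, whose strain is C57BL/6J and not 129/Ola. Capitals mark the dinucleotide CG, which reads the same on both strands.
Hs3st5, marked, chr10:36506564-36506813: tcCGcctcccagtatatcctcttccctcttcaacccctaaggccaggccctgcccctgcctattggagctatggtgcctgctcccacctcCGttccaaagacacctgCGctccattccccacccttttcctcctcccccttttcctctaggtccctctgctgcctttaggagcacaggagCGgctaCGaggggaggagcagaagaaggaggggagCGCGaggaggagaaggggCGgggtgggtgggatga
Hs3st1, gene record start with no peak, chr5:39755476-39755725: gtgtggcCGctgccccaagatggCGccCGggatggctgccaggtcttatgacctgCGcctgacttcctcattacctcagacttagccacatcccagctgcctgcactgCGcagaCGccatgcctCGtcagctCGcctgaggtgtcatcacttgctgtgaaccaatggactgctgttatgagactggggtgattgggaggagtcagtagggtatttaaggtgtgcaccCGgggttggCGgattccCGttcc
Hs3st1, marked downstream start, chr5:39645247-39645496: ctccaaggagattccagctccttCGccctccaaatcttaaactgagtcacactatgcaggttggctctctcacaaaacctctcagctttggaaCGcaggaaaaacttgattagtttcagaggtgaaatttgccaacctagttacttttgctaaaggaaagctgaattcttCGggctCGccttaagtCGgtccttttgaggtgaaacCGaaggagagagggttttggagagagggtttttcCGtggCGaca
B3gnt3, marked, chr8:71701790-71702039: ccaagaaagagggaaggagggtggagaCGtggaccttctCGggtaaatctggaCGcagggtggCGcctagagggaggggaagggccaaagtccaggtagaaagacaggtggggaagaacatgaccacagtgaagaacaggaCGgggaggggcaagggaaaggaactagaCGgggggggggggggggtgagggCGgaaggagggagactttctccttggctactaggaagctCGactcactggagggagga
B3gntl1, no peak, chr11:121673154-121673403: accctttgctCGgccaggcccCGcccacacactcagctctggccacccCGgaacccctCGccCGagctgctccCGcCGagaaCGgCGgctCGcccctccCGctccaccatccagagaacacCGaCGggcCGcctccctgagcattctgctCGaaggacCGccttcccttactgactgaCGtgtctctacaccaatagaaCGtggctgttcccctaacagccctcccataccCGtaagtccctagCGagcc

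The 250 bases of Hs3st5 hold 8 CG, as do those of B3gnt3 and of the marked start of Hs3st1, and 52.2% of all coding gene starts have at least as many in this length. The Hs3st1 record start holds 11 (43.5% have as many), and the B3gntl1 start holds 20 (20.2% have as many). B3gntl1 had the highest CpG ratio (0.762) of the B3gnt genes without a peak, while Hs3st1 (0.406) was the only such Hs3st gene. The starts were picked by rank or ratio and are few, so these counts do not compare marked with unmarked starts. Peaks covered 190 and 175 of the 250 bases at Hs3st5 in replicates 1 and 2, 143 and 250 at B3gnt3, and 250 and 214 at the downstream Hs3st1 start. They covered none at the other starts shown.

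All 14 Chst genes had a peak in replicate 2, where 30.2% of all genes had one, and 11 of them had one in replicate 1 too. These carbohydrate sulfotransferases act on chondroitin, dermatan and keratan sulfate and on the caps of other glycans. The highest ranks went to Chst1, the keratan sulfate galactose sulfotransferase, with 1666 and 1682 bp covered and signal values of 13.7 and 15.3, and to Chst2, which sulfates N-acetylglucosamine, with 1716 and 1674 bp (14.2 and 13.3). Chst11, a chondroitin 4-sulfotransferase, had 1749 and 1716 bp (12.9 and 12.8). Chst3, the chondroitin 6-sulfotransferase, had 1894 and 1847 bp (11.5 and 10.1). All 4 were high in both replicates. The other marked genes were Chst5, Chst7, Chst8, Chst9, Chst13, Chst14 and Chst15, with 626 to 1825 bp in replicate 1 and 624 to 2001 bp in replicate 2.

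With 11 of 14 Chst genes marked (78.6%), the counts by sulfated position that follow are near the family's share. Of the 6 genes for sulfation of N-acetylgalactosamine at the 4 position (Chst8, Chst9, Chst11, Chst12, Chst13 and Chst14), 5 were marked. Of the 5 genes for sulfation of galactose or N-acetylglucosamine at the 6 position (Chst1, Chst2, Chst4, Chst5 and Chst7), 4 were marked. The exceptions, Chst12 and Chst4, together with Chst10, which makes the HNK-1 epitope of neural cells, had a peak in replicate 2 alone. They were covered there over 123, 379 and 240 bp, with signal values of 3.47, 4.34 and 4.05, none of them above the lowest replicate 2 signal of the marked Chst genes (4.34, at Chst7).

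GALNT enzymes transfer the first N-acetylgalactosamine of mucin-type O-glycans, and 15 of the 19 Galnt genes were marked. Galnt16 on chromosome 12 had the highest mean rank of all members, with 1862 and 1786 bp covered and signal values of 15.1 and 13.9. Galnt9 had 1154 and 906 bp (11.8 and 14.3), and Galnt13, an isoform of neurons, had 1102 and 1033 bp (12.3 and 12.1). Galnt6 was covered over all 2001 bp in both replicates (12.1 and 11.9). High rank and wide coverage thus did not always go together: the peaks of Galnt9 and Galnt13 ranked with that of Galnt6 and covered less of the window.

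Galnt3, Galnt12, Galnt14, Galnt18 and Galntl6 were covered over 1599 to 2001 bp in either replicate. Galnt10 had 837 and 671 bp, Galnt4 had 930 and 486 bp, and Galnt17 had 464 and 239 bp. The signal values of Galnt17, 10.1 and 11.9, were above the medians of the marked Galnt genes (9.04 and 8.96). An annotated Galnt17 start 1582 bp downstream was covered over 2001 and 1821 bp. At Galnt11, with 633 and 277 bp, the mark lay at 2 of 5 annotated starts, while the other 3, between 24469 and 25459 bp downstream, had no peak.

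Galnt1 and Galnt2, the isoforms known for broad expression, were covered over few bases of the 2001 bp window. Within 5 kb of the start, 1512 bp at Galnt1 and 1245 bp at Galnt2 were covered in both replicates. The median over marked members was 3809.5 bp. In the window, Galnt2 had 116 bp covered in replicate 1 and 250 bp in replicate 2. Galnt1 had 160 and 180 bp at different bases, so that no base of its window was covered in both replicates, the only marked member of which this was true. With St6galnac4 (192 and 404 bp), these were the 3 members just inside the threshold. Just outside it lay Galnt7, with 371 bp in replicate 1 alone (signal 5.75) and the nearest common base 1017 bp from its start, then B3gnt6 at 2527 bp and St3gal4 at 2817 bp. Galnt15 had 449 bp in replicate 2 alone (signal 4.34). Galnt5 and Galntl5, a testis gene, had no peak, and the nearest common bases were 358251 and 40783 bp away.

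In the next families, 3 of 9 B3gnt and 3 of 7 B4galt genes were marked. Many B3GNT enzymes add N-acetylglucosamine to galactose, and B4GALT enzymes add galactose in turn. B3gnt4 had 1268 and 1249 bp covered with signal values of 7.2 and 11.3. B3gnt3 had 1315 and 2001 bp (5.59 and 6.21). B3gnt9 had 1170 and 1300 bp (4.93 and 5.85) and lay at the end of a 31.2 kb domain on chromosome 8 that also holds the starts of Fbxl8, Hsf4, Nol3 and Tradd. A domain here is a run of bases covered in both replicates, joined across gaps of up to 3 kb. B3gnt2, B3gnt5, B3gnt6, B3gnt7, B3gnt8 and B3gntl1 had no peak. The nearest common base was 341996 bp from B3gnt2, which makes long N-acetyllactosamine chains, and 237372 bp from B3gnt5, which starts the lacto-series glycolipids.

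Among the B4galt genes, B4galt2 had 962 and 951 bp covered with signal values of 7.4 and 5.55, B4galt4 had 1013 and 1182 bp (6.3 and 6.36), and B4galt5 had 446 and 308 bp (6.8 and 7.09). In none of the 3 was the start base covered in both replicates, where it was in 39.3% of marked members and 36.7% of all marked genes. B4galt1, the main galactosyltransferase of N-glycans, B4galt3, B4galt6 and B4galt7, which builds the linker of all glycosaminoglycans, had no peak, with the nearest common base 63809 to 189385 bp away. At least 50% of the window was covered at B4galt4 alone.

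Among the sialyltransferases, 13 of 21 records were marked. ST8SIA enzymes join sialic acids to one another. St8sia2 and St8sia4, the polysialyltransferases that modify the neural cell adhesion molecule, were both marked, St8sia2 over 1840 and 1803 bp (signal 12.9 and 11.0) and St8sia4 over 1816 and 1846 bp (8.49 and 8.1). St8sia5 had 2001 and 1888 bp (11.8 and 9.83), and St8sia6 had 1893 and 1816 bp (8.77 and 12.4). St8sia1, the GD3 synthase of gangliosides, had 797 and 815 bp (5.75 and 5.49), the least of the 5. St8sia3 had no peak at the record's 5' end, but the other 6 of its 7 annotated starts, 9296 to 12449 bp downstream, were marked, the first of them over 1983 and 1696 bp. By any annotated start, all 6 St8sia genes were marked.

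Of the St3gal genes, which link sialic acid to galactose, St3gal1 stood highest with 1724 and 1587 bp and signal values of 13.7 and 12.1. St3gal5, the GM3 synthase, had 589 and 685 bp (6.03 and 6.65). St3gal6 had 1220 and 1033 bp (4.93 and 6.75), of which 575 bp were common. St3gal4 had 611 bp in replicate 2 alone (signal 3.73) at the record's 5' end, and its start 2395 bp downstream was covered over 830 and 579 bp. St3gal2 and St3gal3 had no peak.

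Both St6gal genes were marked. St6gal1, which caps N-glycans, had 894 and 841 bp (signal 4.59 and 5.14), and St6gal2 had 1766 and 1666 bp (7.12 and 8.39). The St6galnac genes act on N-acetylgalactosamine or on gangliosides, and 3 of their 7 records were marked. St6galnac5 had 1918 and 1895 bp (10.7 and 11.9), more than St6galnac3 with 441 and 745 bp (4.66 and 4.92). St6galnac4 had a signal of 3.22 in replicate 1, the lowest of all marked members there. St6galnac1, which makes the sialyl-Tn antigen, St6galnac6 and both St6galnac2 records had no peak. St6galnac4 and St6galnac6 start 12.6 kb apart on chromosome 2.

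The fucosyltransferases held some of the best covered and some of the most distant members. Fut1, which makes the H antigen, had 1899 and 1827 bp covered with signal values of 9.86 and 9.17. Its 18.1 kb domain on chromosome 7 (45615641 to 45633706) also holds the starts of Izumo1 and Rasip1. Fut2, the secretor enzyme, starts 49.1 kb away and had no peak in its window. The nearest peak of replicate 2 was 5209 bp from the Fut2 start, and the nearest base covered in both replicates was 11452 bp from it.

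Of the 3 genes for Lewis-type fucose, Fut4 had 1288 and 1660 bp (signal 12.3 and 12.7) and Fut7, the selectin ligand enzyme of leukocytes, had 1763 and 1067 bp (9.78 and 7.81). Fut9, known as the main source of the SSEA-1 epitope in the early mouse embryo, had no peak, and no base covered in both replicates lay within 702390 bp of its start, the largest distance among the 88 members. Peaks of single replicates lay nearer to Fut9, at 198921 bp in replicate 1 and 431377 bp in replicate 2. Fut8, the core fucosyltransferase of N-glycans, had no peak in its window, with a replicate 2 peak 1838 bp away and the nearest base covered in both replicates 188997 bp away. For Fut10 and Fut11, also without a peak, the nearest common bases were 5439 and 13409 bp away.

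Long domains were found at single genes of several families. Of the 56 marked members, 14 (25.0%) lay in a domain of 10 kb or longer, where 21.2% of all marked genes did. The longest beside that of B3gnt9 were at Galnt16 (27.5 kb, chromosome 12, 80511033 to 80538546), Chst15 (21.5 kb, chromosome 7, 132311692 to 132333190) and Galnt9 (19.9 kb). Chst1, Chst2, Chst8 and Chst11 had domains of 14.6, 10.9, 16.3 and 10.2 kb, and St8sia2 and St8sia5 of 13.6 and 16.5 kb. Galnt6 and Hs6st2 followed with 13.7 and 14.8 kb, and in all of these the member had the only protein-coding start. The domain of B3gnt3, of 16.9 kb, also holds the start of Insl3. No Hs3st gene lay in a domain of that length, although the family had the largest share of marked genes.

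The mark flanked the starts more often than it lay on them. At the start base itself 48.2% of the marked members were covered in replicate 1 and 46.4% in replicate 2. At 900 bp into the gene 89.3% and 83.9% were covered, and at 700 bp before the start 71.4% and 69.6% were. The 5679 marked genes of the genome had lower values, with 45.4% and 42.5% at the start base and 74.9% and 72.4% at 900 bp. The window that called the genes reaches 1 kb on each side, so the height within it is set by the choice.

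**Figure D3:**
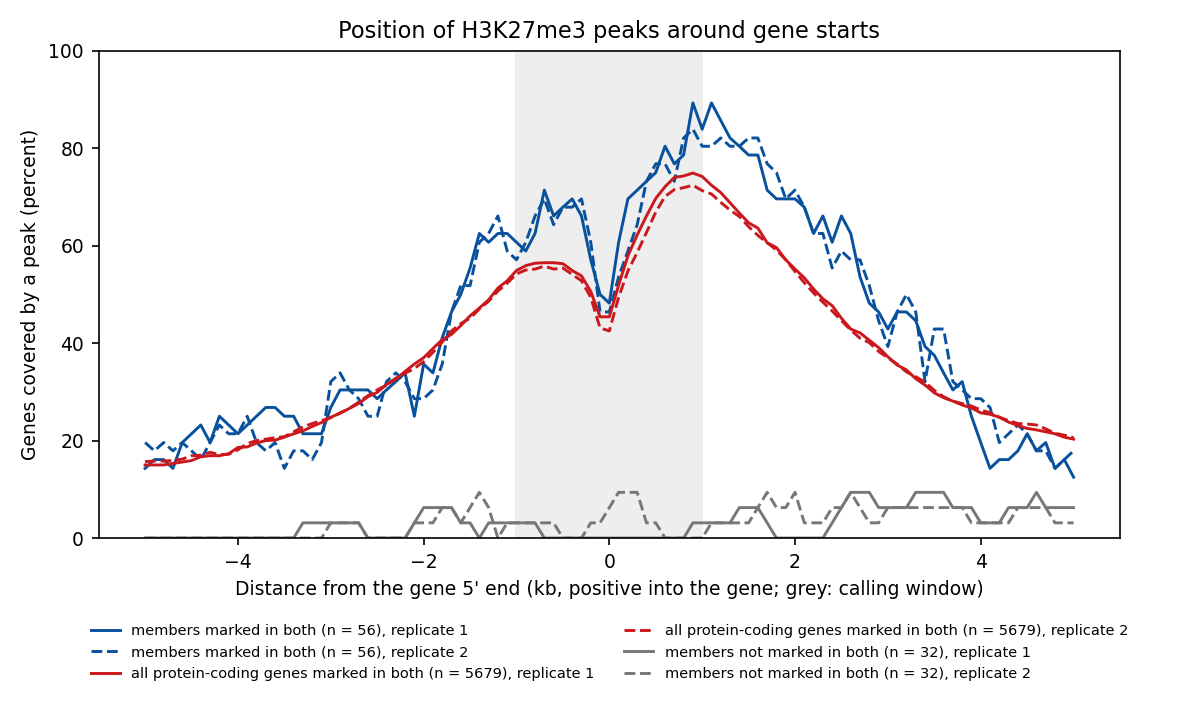
Percent of genes covered by a peak (vertical axis) against distance from the gene 5' end in kb (horizontal axis, positive into the gene), for the 56 marked members, the 32 other members and all 5679 marked genes, with replicate 1 solid and replicate 2 dashed. All marked sets drop at the start base, to 48.2% and 46.4% in the members, and are highest at about 900 bp downstream.

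CpG content was not used in choosing the members. The ratio of observed to expected CpG over 500 bp on each side of the start had a median of 0.658 in marked members, 0.51 in those with no peak and 0.558 in all protein-coding genes. With the starts of all genes split into 3 equal classes by this ratio, 4 of the 16 members in the lowest class were marked (25.0%, and 10.5% of all genes in it), 27 of 38 in the middle class (71.1%, and 39.3%) and 25 of 34 in the highest class (73.5%, and 28.5%). The members' share was above that of all genes in each class. The 4 marked members of the lowest class were Galnt11, Galnt17, B3gnt4 and Fut7, with ratios of 0.092, 0.189, 0.244 and 0.22. In the highest class, the 9 members not marked in both replicates were Galnt7, B3gntl1, B4galt1, B4galt6, St3gal3, Fut8, Fut11, Chst10 and Hs6st1. Marked members were also longer genes, with a median of 73.4 kb, than those with no peak (31.6 kb) and all protein-coding genes (17.4 kb).

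**Figure D4:**
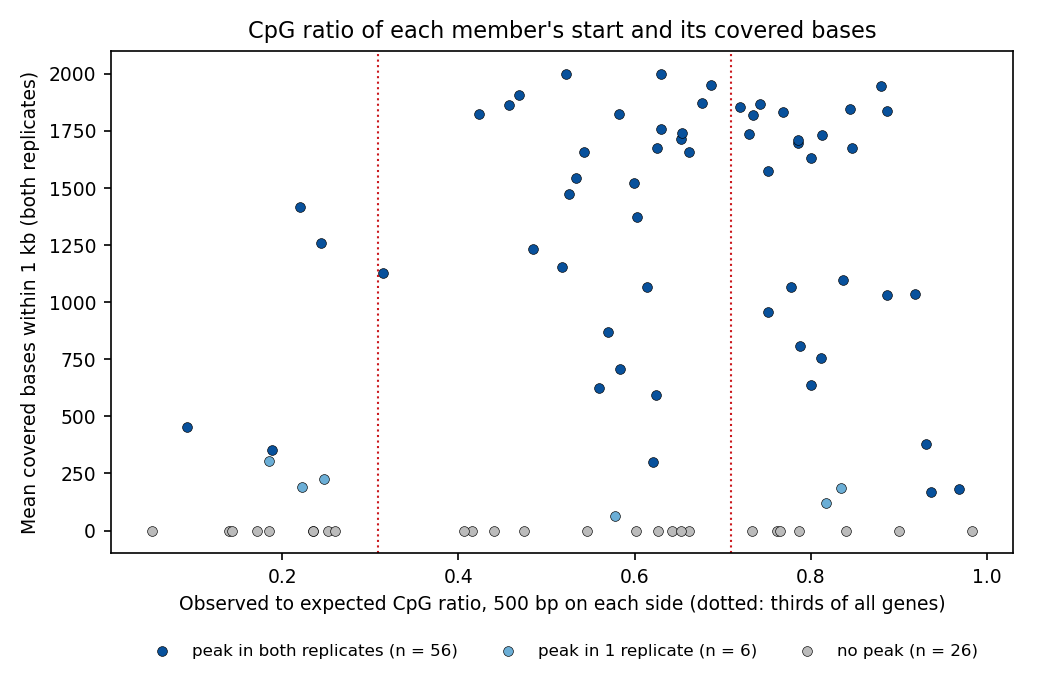
Mean covered bases of the replicates in the 2001 bp window (vertical axis) against the observed to expected CpG ratio of each member's start (horizontal axis), coloured by peak in both replicates, in 1 or in none. Dotted lines divide all protein-coding genes into 3 equal classes at ratios of 0.309 and 0.71, and 4 of the 16 members in the lowest class are marked.

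Some members not marked in both replicates were marked with other lists or other annotated starts. In the relaxed lists of the first processing run, 67 members had a peak in both replicates (76.1%), where 33.3% of all genes had. The 11 gained were Galnt7, Galnt15, B3gnt6, St3gal4, St6galnac1, the longer record of St6galnac2, Fut2, Fut10, Chst4, Chst10 and Chst12, so that all 14 Chst genes were marked there. By any annotated transcript start 60 members were marked, with Galnt7, St3gal4, St8sia3 and Hs3st1 gained, where 29.4% of all genes were. At Galnt7 a transcript start 29 bp from that of the record was enough to bring 13 bp of a replicate 2 peak into the window.

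Other genes of the same pathways were marked less evenly. Of 123 genes in 9 lists of related enzymes and carriers, 52 were marked (42.3%, against 26.1% of all genes). Proteoglycan core proteins, which bear the sulfated chains, had 14 of 20 marked, led by Bcan, Sdc3, Acan and Sdc1. Bcan, the brain proteoglycan brevican, was covered over 2001 bp in both replicates with signal values of 15.3 and 15.6. Agrn, Dcn and Gpc3 had no peak. Genes that branch N-glycans had 8 of 13 marked, led by Man1c1, Mgat5b, Mgat3 and Man2a2, while Mgat1 and Mgat2, which act on nearly all complex N-glycans, and Mgat4b had none.

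The list for the glycosaminoglycan linker had 4 of 7 marked, with B3gat2 at 1909 and 2001 bp, B3gat1, Xylt1 and Fam20b. B3galt6, B3gat3 and Xylt2 had no peak. B3gat1 and B3gat2 are relatives of B3gat3 that serve the HNK-1 epitope, so this count is not of linker enzymes alone. Chondroitin chain enzymes had 5 of 9 marked (Chpf, Csgalnact1, Ust, Chsy3 and Chsy1), and Chpf2, Csgalnact2 and Dse had no peak. The list for making and editing heparan sulfate chains had 6 of 15 marked, among them Hpse, Hpse2, Ndst2 and Ndst3. Ext2, Extl1 and Extl2 had no peak. Glycolipid and blood group enzymes had 7 of 18 marked, among them B4galnt1, Gal3st4, B4galnt2 and B3galt1, and A4galt, Abo and B3galt2 had none.

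Donor supply had 7 of 24 marked (29.2%), close to the share of all genes, led by Papss2, Slc35c1 and Ugdh. Cmas, Fpgt and Gmds had no peak. Papss2, one of the genes whose enzymes make the sulfate donor, was covered over 1929 and 1843 bp, while Papss1 had no peak. Of the mucin core genes Gcnt4 alone of 7 was marked, and A4gnt, C1galt1 and C1galt1c1 had no peak. None of the 10 oligosaccharyltransferase genes, such as Dad1, Ddost and Magt1, which every cell uses for N-glycosylation, had a peak in either replicate.

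**Figure D5:**
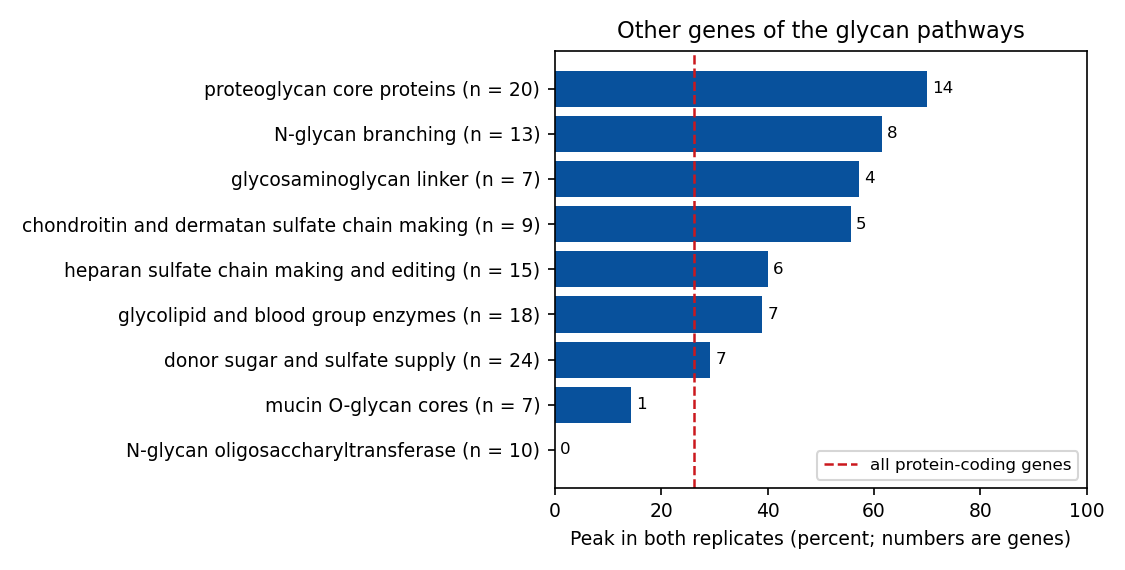
Percent of genes with a peak in both replicates (horizontal axis) in 9 lists of other genes of the glycan pathways, with the number marked beside each bar and all protein-coding genes (26.1%) as the dashed line. The lists range from 0 of 10 oligosaccharyltransferase genes to 14 of 20 proteoglycan core proteins.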

How the data were processed

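H3K27me3 peak lists of 2 replicates were used. Per the file headers, the main lists are narrowPeak pseudoreplicated lists on mm10, called on each replicate alone. Caller, aligner and thresholds: not given in the sources used here. Each deposited peak has a signal value, used only for rank and description, and a deposited −log10 p and −log10 q. An archived broad-peak list on mm9 was not analysed here because its build differs.

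Window overlap needed at least 1 bp. Genes came from GENCODE mouse release 21 (GRCm38), and no peak lay past a chromosome end. Members are all records whose symbol begins with a family stem. The members and lists were chosen with earlier results of these data known. Every member is named with its state. Values are given for up to 4 marked members per family by mean signal rank, for those at the threshold and for others that a paragraph compares. B3gnt4 was passed over for sequence because its 250 bases overlap an exon of another gene. Interval functions were tested on simulated data. Scripts ran on Python 3.11.15 with pandas 2.3.3, NumPy 2.4.6 and Matplotlib 3.10.9. The alternatives were other windows (0.5 and 2.5 kb), 50% coverage, the same bases in both replicates, −log10 q of at least 2, the other deposited lists, any transcript start and each replicate alone.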

Additional observations from a re-analysis of the deposited data

How the results depend on the processing

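The count of 56 marked members was recomputed under 12 alternatives and ranged from 40 (50% of the window covered) to 67 (3 other deposited lists, named below). The members' share exceeded that of all protein-coding genes under all 12. The alternatives use the same libraries from which the families were put forward, so this is a description and no independent support. Leaving out a replicate gave 57 to 61 members. Of the 56, 40 were marked under every alternative and 49 under every one but the 50% rule, and 19 of the 32 others were unmarked throughout. Family counts moved by over 1.5 times in 7 cases. With 50% of the window covered, Galnt fell from 15 to 8, B4galt from 3 to 1 and St6gal from 5 to 2. With a window of 0.5 kb St6gal fell to 3. Fut rose from 3 to 5 with the relaxed lists, with the pseudoreplicated list of both libraries together and with the first run's replicated list. Apart from the stricter rules themselves, the cause was not tested. No paired analysis was possible because the series has a single group. The unknown depth limits what an absent peak can show.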
